A study of Mus musculus with 2 samples.

Results

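In the culture of 63.3 cells given brequinar for 48 h, 102 of 515 cells carried Prg2 at 100 or more UMIs (unique molecular identifiers, each counting 1 RNA molecule) per 10000 UMIs of the cell. These Prg2-high cells were compared with the other 413 cells of the same culture, the Prg2-low cells. All 515 had at least 2500 spliced UMIs, and 13 of the culture's 528 cells fell below that depth. The groups were chosen by the measured Prg2 level of each cell, so that level is given only as a description, and Prg2 was taken out of the counts and totals of every comparison. Across the 10 cultures of the series, 475 of 10949 cells at this depth passed the same threshold, out of 12540 cells in all.

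The 63.3 line comes from mouse acute myeloid leukemia and was grown with 0.5 µM beta-estradiol and with stem cell factor from conditioned medium. Brequinar, an inhibitor of the pyrimidine synthesis enzyme DHODH, was given at 2 µM for 6, 12, 24 or 48 h with estradiol and stem cell factor still present. A second series had estradiol removed for the same times by washing the cells, and each series had a 0 h culture. Each condition was 1 culture, tagged with a DNA barcode, pooled with the others and run 2 times on 10x Genomics v3 chemistry. Cells of 1 culture are not replicates, so no p-value is given. Intervals are exact 95% intervals that cover counting error only.

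Prg2 encodes the major basic protein that fills the crystalline core of eosinophil granules, and it is also made by some basophils and mast cells. Eosinophils arise from granulocyte progenitors under C/EBP factors, GATA1 and interleukin-5, and they store cationic proteins such as major basic protein, its relative Prg3 and eosinophil peroxidase (Epx). Neutrophil precursors store a different first set of granule proteins, which includes myeloperoxidase (Mpo), neutrophil elastase (Elane), proteinase 3 (Prtn3) and cathepsin G (Ctsg).

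In the Prg2-high cells, Prg2 ranged from 101 to 1850 per 10000 UMIs, with a median of 312 and quartiles of 215 and 472. In the richest cell it made up 18.5% of all UMIs. In the Prg2-low cells it ranged from 0 to 98.7, with a median of 2.49. The 3 cells just inside the threshold stood at 101, 101 and 104, and the 3 just outside at 96.9, 97.0 and 98.7. The threshold cuts through a range of values: 24 cells had 50 to under 100 and 23 had 100 to under 200, while 345 cells had under 10. Prg2-high cells held 91.9% of the Prg2 UMIs of the culture. In barcodes of 2 to 100 UMIs, which hold free RNA, Prg2 stood at 31.4 per 10000, below the threshold but above the median of the Prg2-low cells.

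The Prg2-high share was 1.30% at 0 h of brequinar (17 of 1309 cells), 0.903% at 6 h, 1.21% at 12 h and 3.14% at 24 h (45 of 1433). It was 19.8% at 48 h, with an interval of 16.4% to 23.5%. In the estradiol series it was 1.02% at 0 h, 1.23% at 6 h, 2.30% at 12 h, 16.4% at 24 h (188 of 1144, interval 14.3% to 18.7%) and 5.52% at 48 h. Prg2-high cells were thus present in all 10 cultures, and the shares at 48 h of brequinar and 24 h of withdrawal were the 2 highest.

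**Figure D1:**
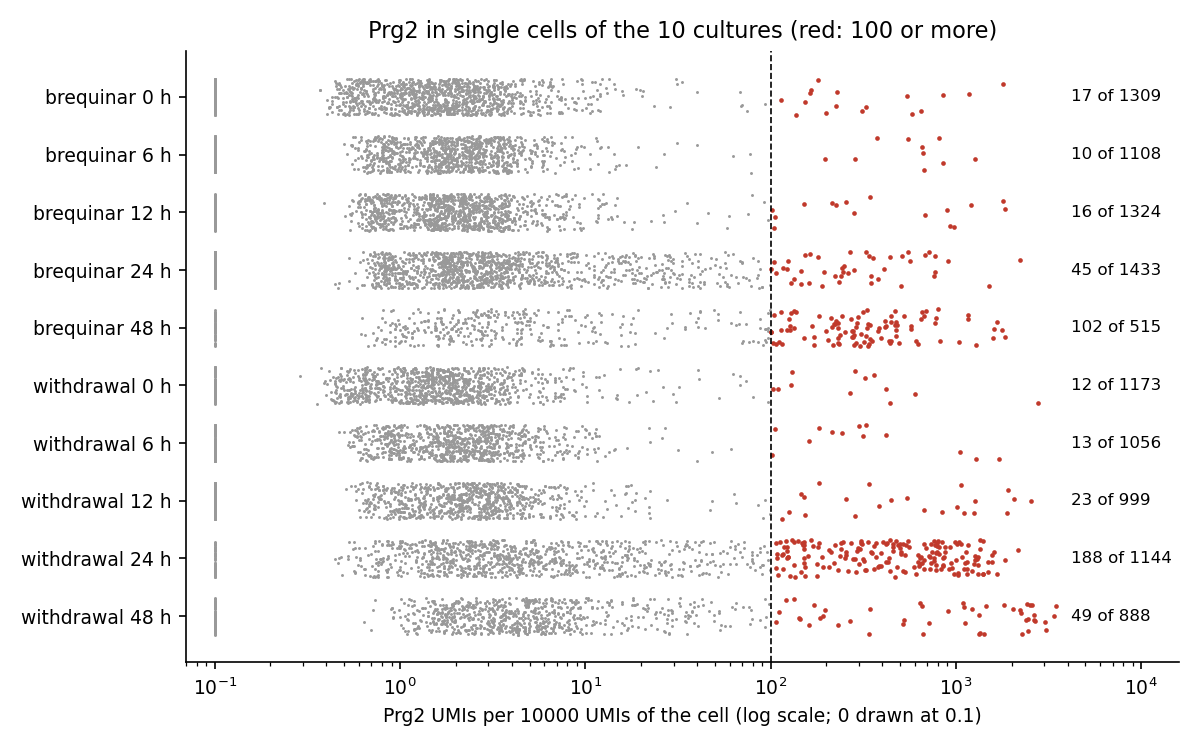
Prg2 UMIs per 10000 UMIs of the cell (log scale, 0 drawn at 0.1) for every cell of at least 2500 UMIs in the 10 cultures, with the threshold of 100 as a dashed line and the number of Prg2-high cells (red) at the right. The red cells are most numerous at 48 h of brequinar (102 of 515) and 24 h of estradiol withdrawal (188 of 1144), and no gap separates them from the cells below the line.

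Depth and RNA quality were close in both groups. The median was 10302 UMIs per Prg2-high cell and 9713 per Prg2-low cell, with 3287 and 3330 genes. The median mitochondrial share was 2.29% and 2.25%, and 1 cell of each group had 10% or more. The summed counts without Prg2 came to 1057030 and 4116661 UMIs. Levels below are counts per 1000000 UMIs of these sums (CPM), on which 3 counts stand at 2.84 CPM in Prg2-high and 0.729 CPM in Prg2-low cells. They compare a gene between groups, not genes with each other.

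Of 6148 genes at 20 CPM or more in either group, 406 were at least 1.5-fold higher in Prg2-high cells (6.6%) and 552 at least 1.5-fold lower (8.98%). The median log2 ratio over all of them was -0.04. All log2 ratios use a pseudocount of 5 CPM, which understates the difference of low genes. In the text, "higher" and "lower" counts refer to this 1.5-fold limit.

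Eosinophil genes led the higher side. Of the 16 measured genes of an eosinophil list (24 genes, without Prg2), 10 were higher and 1 was lower, with a median log2 ratio of 0.99. The higher genes were Prg3, Epx, Alox15, Gata1, Cebpe, Il5ra, Il1rl1, Csf2rb2, Adgre1 and Csf2rb, and the lower one was the calcium-binding protein gene S100a6. Epx, Gata1 and Il5ra reached 20 CPM only in Prg2-high cells, so for them the minimum set the direction. As separate per-cell sums of 10 eosinophil markers without Prg2, Prg2-high cells had a median of 88.9 UMIs per 10000 (12.5 to 211) and Prg2-low cells of 4.67 (0 to 118). The ranges overlapped.

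Prg3 was found in every Prg2-high cell. Its level ranged from 11.5 to 201 UMIs per 10000 with a median of 81.1, against 0 to 113 with a median of 2.99 in Prg2-low cells. The lowest Prg2-high cell was above the upper quartile of the Prg2-low cells, 8.21, although the ranges overlapped. Summed, Prg3 stood at 8092 CPM against 919 CPM, 8.81-fold (8.47 to 9.15). Prg2 and Prg3 transcripts shared no word of 31 bases in the reference transcripts, so reads of one gene are not expected in the other by such matches.

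Epx was confined to few cells. It had 61 counts in 9 of the 102 Prg2-high cells and 3 counts in 3 of the 413 Prg2-low cells, a ratio of 79.2 (25.8 to 395). The 2% of Prg2-high cells richest in Epx held 67.2% of its counts. Outside the cells with Prg2 at 400 or more per 10000, its level was at most 4.04 CPM.

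The promoters of Prg3 and Epx are shown because both granule genes were among the highest, and the factor genes Gata1 and Cebpe were higher with them. Each is the 250 bases before the RefSeq gene start (build GRCm38.p6), 5′ to 3′ on the gene's strand, in lower case with matches to GATAA on either strand in capitals. Prg3 lies at chr2:84987965-84988214 on the plus strand and Epx at chr11:87875537-87875786 on the minus strand.
Prg3: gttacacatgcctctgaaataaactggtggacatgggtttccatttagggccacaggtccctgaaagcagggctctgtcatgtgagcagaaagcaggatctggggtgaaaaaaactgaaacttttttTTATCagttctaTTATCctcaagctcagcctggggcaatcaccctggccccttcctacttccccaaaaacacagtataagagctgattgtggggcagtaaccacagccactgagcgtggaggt
Epx: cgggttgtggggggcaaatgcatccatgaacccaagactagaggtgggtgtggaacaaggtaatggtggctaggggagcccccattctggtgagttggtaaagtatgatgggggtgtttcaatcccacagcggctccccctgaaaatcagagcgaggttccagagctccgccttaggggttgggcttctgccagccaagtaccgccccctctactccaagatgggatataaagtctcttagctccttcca
The Prg3 window held 2 matches to GATAA and 1 to the looser C/EBP-type pattern TTNCNNAA, and the Epx window held none of either. Searched on both strands, GATAA occurs in 22.6% and TTNCNNAA in 36.9% of 32841 windows of this length. Of the 15 highest genes named below, 12 had a window, some of them several. They had 16 windows in all, of which 3 held GATAA and 9 TTNCNNAA. Of the 15 lowest, 11 had a window, also 16 in all, of which 4 held GATAA and 9 TTNCNNAA. Matches of the 2 patterns may overlap, and a match is a description of letters, not a binding site.

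Genes of eosinophil regulation and signalling were also among the higher ones. Cebpe, a C/EBP factor of late granulocyte development, had a median of 15.8 UMIs per 10000 in Prg2-high cells (0 to 46.0) and of 1.88 in Prg2-low cells (0 to 45.8). Its summed level was 1627 against 420 CPM, 3.88-fold (3.62 to 4.15). Gata1, a zinc finger factor required for eosinophils, had 59 against 42 counts, or 55.8 against 10.2 CPM (5.47-fold, 3.62 to 8.33). Il5ra, the interleukin-5 receptor alpha chain, had 24 and 16 counts, a ratio of 5.84 (2.98 to 11.8). Csf2rb, its signalling beta chain, was 1.56-fold higher (1.37 to 1.77) and Csf2rb2, the related interleukin-3 receptor chain, 2.60-fold (1.83 to 3.66). Il1rl1, the interleukin-33 receptor, stood at 66.2 against 20.4 CPM.

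Several eosinophil genes were within the limit or had too few counts to compare. Siglecf, a surface lectin of mature eosinophils, stood at 115 and 128 CPM, a ratio of 0.91 (0.74 to 1.10). Ccr3, the eotaxin receptor, had 4 counts against 1. The granule ribonuclease genes Ear1 and Ear2 had no count in either group, which allows up to 2.84 CPM in Prg2-high and 0.729 CPM in Prg2-low cells. Of their 31-base words, 73.6% and 60.5% occur in transcripts of other genes, so their reads could be assigned elsewhere or dropped.

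The 15 highest genes by log2 ratio, of those at 50 CPM or more that kept the 1.5-fold difference without the 2% of cells richest in each, are Serpinb2, Alox15, Epx, Prg3, Il4, Serpinb10, Ifitm1, Syne1, Chst13, Zfp622, Jak2, Ikzf2, Nucb2, Sept1 and Agps. Serpinb2, a plasminogen activator inhibitor, stood at 145 against 6.07 CPM (23.8-fold, 15.5 to 38.0). It was seen in 23.5% of Prg2-high and 2.91% of Prg2-low cells, and its richest 2% of Prg2-high cells held 40.5% of the counts. Alox15, a lipoxygenase abundant in eosinophils, stood at 324 against 23.8 CPM (13.6-fold, 10.8 to 17.2) and was seen in 75.5% against 13.1% of cells.

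Ifitm1, an interferon-induced membrane protein, was the most heavily counted of the 15. It ranged from 0 to 361 UMIs per 10000 with a median of 101 in Prg2-high cells, and from 0 to 290 with a median of 8.48 in Prg2-low cells. Its summed level was 11052 against 2100 CPM, 5.26-fold (5.12 to 5.41). It was the only higher gene among 8 measured interferon response genes, and Ifitm3 was the only lower one. The cytokine gene Il4 had 79 against 29 counts (10.6-fold, 6.85 to 16.8), in 37.3% and 4.36% of cells.

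The other highest genes have varied roles. Jak2, a kinase of cytokine receptors that include the interleukin-5 receptor, was 4.87-fold higher (3.89 to 6.10). Chst13, a chondroitin sulfotransferase, was 6.90-fold higher (4.49 to 10.8), and Serpinb10, a protease inhibitor of blood cells, 8.33-fold (5.28 to 13.4). Syne1, a nuclear envelope linker, Zfp622, a zinc finger protein of ribosome assembly, Ikzf2, the factor Helios, Nucb2, a calcium-binding protein, Sept1, a septin, and Agps, an enzyme of ether lipid synthesis, were 4.17- to 5.61-fold higher. Serpinb2 and Serpinb10 share 11.2% and 7.5% of their 31-base words with other transcripts, and Ifitm1 11.6%, so a part of their reads could have been placed in a relative.

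**Figure D2:**
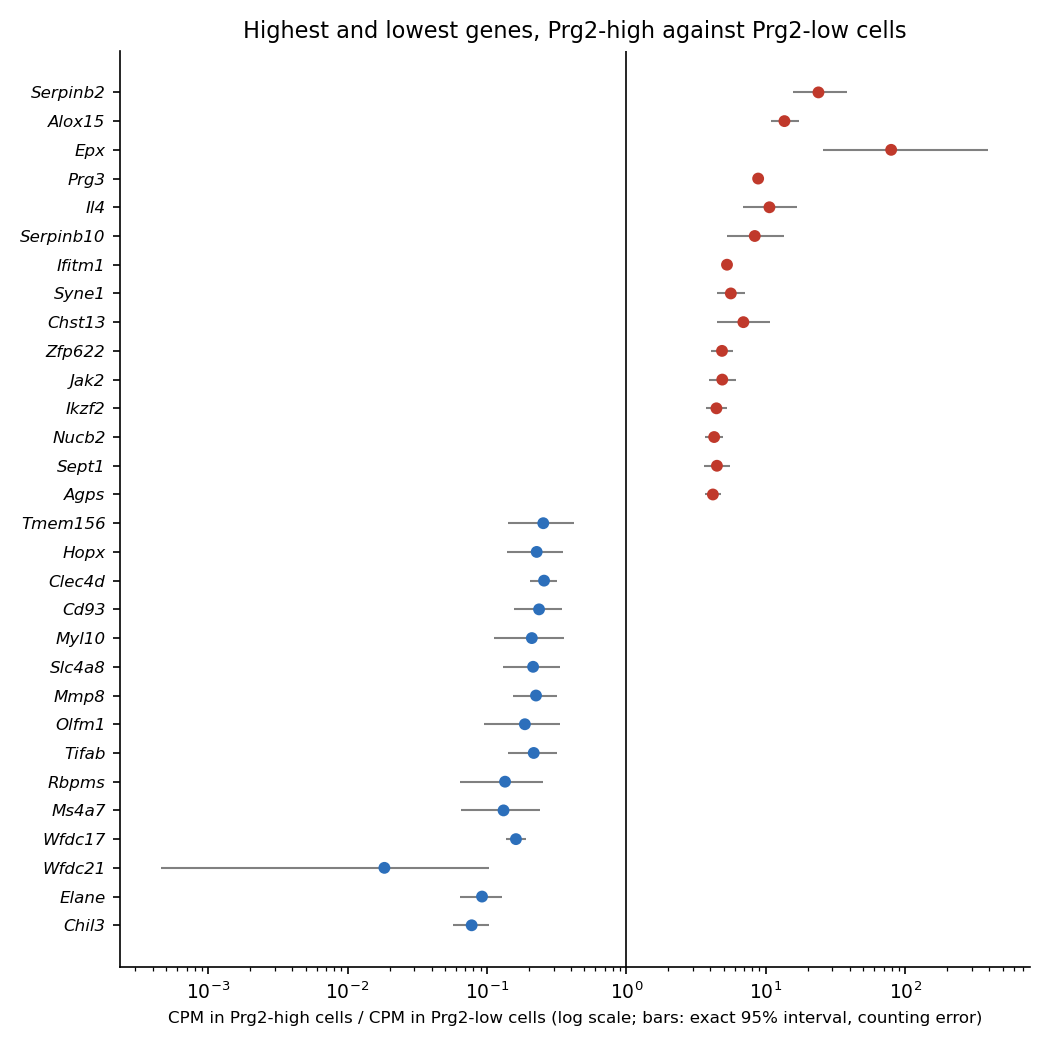
Ratio of CPM in Prg2-high to Prg2-low cells at 48 h of brequinar (log scale) for the 15 highest and 15 lowest genes, in the order of their log2 ratio with a pseudocount of 5 CPM; bars are exact 95% intervals for counting error. Epx and Wfdc21 have the widest bars, from 3 counts in Prg2-low and 1 count in Prg2-high cells, while the bars of Prg3 and Ifitm1 are narrower than their points.

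Granule genes of neutrophil precursors were on the lower side. Of 14 measured primary granule genes, 9 were lower and 1 was higher (Prss57, 1.67-fold), with a median log2 ratio of -1.04. Elane had 36 against 1522 counts, or 34.1 against 370 CPM, 10.9-fold lower (7.81 to 15.6), and was seen in 21.6% of Prg2-high and 49.9% of Prg2-low cells. Mpo had a median of 6.28 UMIs per 10000 in Prg2-high cells (0 to 41.1) and of 17.1 in Prg2-low cells (0 to 73.6). Its summed level was 754 against 1975 CPM, 2.62-fold lower (2.44 to 2.82). Prtn3, Ctsg and the haptoglobin gene Hp were 2.35-, 2.42- and 2.29-fold lower. All 3 stayed abundant in Prg2-high cells, Prtn3 at 2444 CPM, Ctsg at 1632 and Hp at 854. Srgn, the proteoglycan core of many granule types, was 6758 against 4959 CPM, within the 1.5-fold limit.

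Later neutrophil genes were lower too, some of them through a few Prg2-low cells. The calprotectin gene S100a8 had 39.7 CPM in Prg2-high and 624 CPM in Prg2-low cells, but 92.6% of the Prg2-low counts came from the richest 2% of those cells. Without the 11 cells richest in neutrophil granule RNA, none of which was Prg2-high, the Prg2-low level of S100a8 was 52.9 CPM and that of S100a9 46.2 CPM. Chil3, a chitinase-like lectin, had 43.5 against 561 CPM, and 205 CPM without those cells. Free RNA carried S100a8 at 1267 CPM and Chil3 at 544 CPM, above their Prg2-high levels, so counts of both may include it. The secondary and tertiary granule list had 6 lower and 4 higher genes of 11 measured and a median of -0.86, which turned to 0.13 without those 11 cells. Its higher genes were Anxa1 (2.71-fold), Cybb (2.23-fold), Ltb4r1 and Pglyrp1. Of 15 neutrophil maturation genes, 10 were lower and 2 higher, with a median of -0.74.

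The other lowest genes under the rule were Wfdc21, Wfdc17, Ms4a7, Rbpms, Tifab, Olfm1, Mmp8, Slc4a8, Myl10, Cd93, Clec4d, Hopx and Tmem156. Wfdc21 had 1 count in Prg2-high and 212 in Prg2-low cells, a ratio of 0.018 (0.00046 to 0.10). Wfdc17, a secreted protein of macrophages, stood at 148 against 915 CPM. Clec4d, a C-type lectin receptor of myeloid cells, was 3.90-fold lower (3.12 to 4.92) and seen in 40.2% against 81.8% of cells. Cd93, a surface receptor of early myeloid cells, was 4.23-fold lower, and Mmp8, the neutrophil collagenase, 4.45-fold. Chil3 shares 41.5% of its 31-base words with other transcripts.

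Monocyte and progenitor genes were lower in part. Of 14 monocyte and macrophage genes measured, 7 were lower and 1 (Adgre1, shared with the eosinophil list) was higher, with a median of -0.70. Ccr2, a monocyte chemokine receptor, stood at 167 against 531 CPM, and Ly6c2 had no count against 113. Csf1r and Cd14 were within the limit, at ratios of 0.87 and 1.02. Of 15 progenitor genes, 5 were lower (Cd34, Flt3, Sox4, Meis1 and Erg) and 2 higher (Ikzf2 and Ikzf1). Cd34 was 35.0 against 120 CPM, 3.44-fold lower (2.46 to 4.94), while Kit had a ratio of 0.81 (0.63 to 1.01) and Hoxa9 of 0.97.

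Mast cell and basophil genes were higher in part. Of 10 measured, 6 were higher (Il4, Cd200r3, Hdc, Slc18a2, Cpa3 and Mcpt8) and 1 lower (Ms4a2, 2 against 90 counts), with a median log2 ratio of 0.82. Of all genes, 6.6% were higher and 8.98% lower. Il4 reached 20 CPM only in Prg2-high cells and Ms4a2 only in Prg2-low cells, so for them the minimum set the direction. Cpa3, a mast cell carboxypeptidase, was already abundant in Prg2-low cells, at 2627 CPM, and stood at 5275 CPM in Prg2-high cells, 2.01-fold (1.94 to 2.07). Hdc, the histamine-forming enzyme, was 2.49-fold higher and Slc18a2, the vesicular amine transporter, 2.21-fold. The defining genes Fcer1a and Tpsb2 had no count in either group. Per cell, the 7 mast cell and basophil markers summed to a median of 47.6 UMIs per 10000 (0.66 to 200) in Prg2-high and 15.0 (0 to 230) in Prg2-low cells. Nearly all of this sum was Cpa3: over all cells the 7 markers came to 5345 and 2700 CPM.

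Some defining markers of other cell types had no count. The hemoglobin genes Hba-a1 and Hbb-bs, and Cd3e, Siglech and Cd209a, had none in either group. The erythroid factor gene Klf1 and Ly86 had none in Prg2-high cells only. Other markers of these types were counted. The 7 monocyte and macrophage markers, 5 of them measured, summed to 345 CPM in Prg2-high and 798 CPM in Prg2-low cells. The 5 lymphoid markers, 3 of them measured, summed to 132 and 230 CPM. Retnlg and Ly6g, genes of mature neutrophils, were at 0 in Prg2-high cells. The 5 measured neutrophil markers of 11 were all lower, although the per-cell medians of the 11 summed were 3.28 and 4.40 UMIs per 10000. Without the 11 Prg2-low cells richest in neutrophil granule RNA, S100a8 stood at 39.7 against 52.9 CPM and S100a9 at 37.8 against 46.2 CPM. The 5 promyelocyte markers were at a per-cell median of 60.2 UMIs per 10000 in Prg2-high cells (10.9 to 170) against 129. Every Prg2-high cell thus had UMIs of both the promyelocyte and the eosinophil markers, the latter mostly Prg3. Prg2-low cells shared much of this: each had promyelocyte UMIs (lowest 1.94 per 10000), and 82.3% had Prg3. Free RNA carried Mpo at 1194 CPM and Elane at 84.6 CPM, above their Prg2-high levels of 754 and 34.1 CPM. Detection of promyelocyte markers may include it. The part of other cell types in the differences was not tested beyond these values.

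Of 18 myeloid transcription factor genes, only Gata1 and Cebpe were higher and only Cebpa was lower. These shares were near those of all genes (6.6% and 8.98%), and the list had a median log2 ratio of -0.006. Cebpa, the C/EBP factor of early granulocyte and monocyte commitment, stood at 32.2 against 92.3 CPM, 2.87-fold lower (2.02 to 4.21). Spi1 (PU.1) had ratio 1.29, Gfi1 1.42, Gata2 1.22 and Cebpb 0.93, all within the limit. Irf8 had no count against 1, and the integrin gene Itgam 8 counts against 21.

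**Figure D3:**
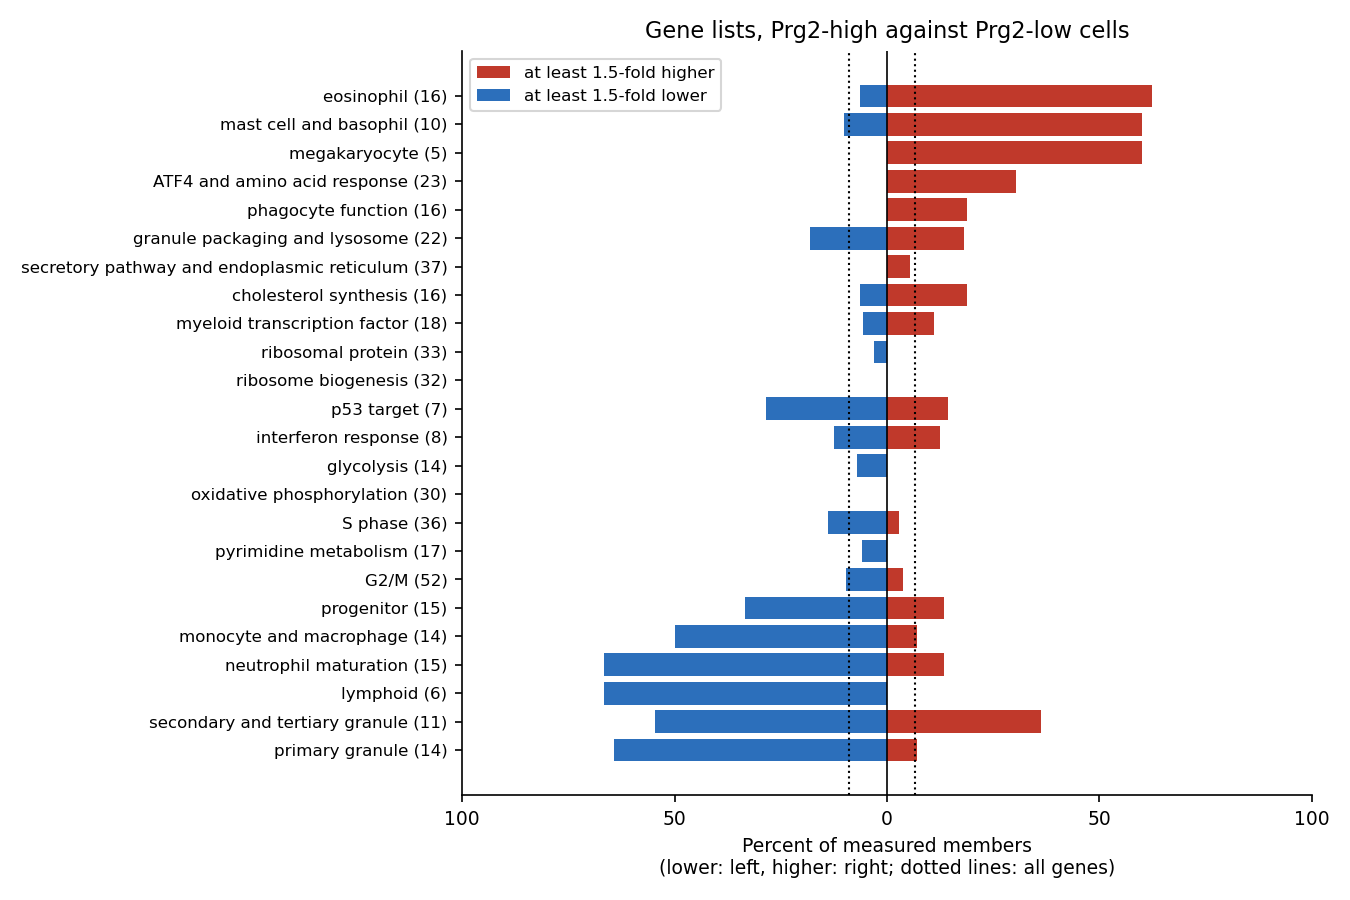
Percent of the measured members (number in brackets) of each gene list that were at least 1.5-fold lower (blue, left) or higher (red, right) in Prg2-high than in Prg2-low cells, for lists with at least 5 measured members, ordered by median log2 ratio. The dotted lines are the shares of all genes, 8.98% lower and 6.6% higher. The eosinophil list reaches 10 of 16 higher and the primary granule list 9 of 14 lower. Among those 10, Epx, Gata1 and Il5ra reached 20 CPM only in Prg2-high cells, so for them the minimum set the direction.

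Genes of growth and synthesis were mostly within the limit. None of 32 ribosome biogenesis genes and none of 30 oxidative phosphorylation genes passed the limit in either direction, and of 33 ribosomal protein genes 1 was lower. Of 37 secretory pathway genes, Edem1 and P4hb were higher, and of 17 pyrimidine metabolism genes only Tyms was lower. Of 16 phagocyte function genes, Cybb, Fcgr3 and Cyba were higher and none was lower. Of 6 measured lymphoid genes, Ebf1, Igll1, Nkg7 and Cd79b were lower. Of 36 S phase genes 5 were lower and 1 higher, and of 52 G2/M genes 5 were lower and 2 higher, shares near those of all genes on the lower side. Myc had a ratio of 1.05 (0.92 to 1.20), the proliferation gene Mki67 0.91 (0.78 to 1.05) and the replication clamp gene Pcna 0.79 (0.57 to 1.07). Dhodh, which encodes the target of brequinar, had 8 counts against 54, a ratio of 0.58 (0.24 to 1.22).

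By expression scores on cells thinned to 2500 UMIs, 71.6% of Prg2-high cells (61.8% to 80.1%) and 75.1% of Prg2-low cells (70.6% to 79.2%) fell in the G2/M class. The S class held 9.80% and 7.02%, and the class with neither score 18.6% and 17.9%. The intervals overlapped in all 3 classes. At 0 h of brequinar the S class held 47.9% and the class with neither score 1.07%. Such classes rest on scores and do not show cycling.

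Several of the lower and higher genes changed along the range of Prg2, while others did not change in 1 direction. The cells fell into 7 bins, with 95 cells under 1 Prg2 UMI per 10000, 250 from 1, 44 from 10, 24 from 50, 23 from 100, 42 from 200 and 37 at 400 or more. Prg3 stood at 396, 487, 2071, 4974, 4454, 7574 and 11719 CPM in this order. Cells just below the threshold thus had Prg3 near that of cells just above it. Cebpe went from 310 and 337 CPM in the 2 lowest bins to 794 and 937 below the threshold, and was between 1575 and 1659 CPM in the 3 bins above it.

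Elane ran the other way, at 498, 391, 147, 76.7, 49.8, 34.2 and 21.3 CPM. Mpo stood at 2245 CPM in the lowest bin, 1237 CPM in the bin from 10 and 646 CPM in the highest. Prtn3 had 5909 and 1770 CPM in these 2 bins. Cebpa stood at 94.2 to 98.4 CPM in the 3 lowest bins and at 48.4, 34.5, 38.5 and 21.3 CPM in the 4 others. Ifitm1 stood at 3772, 11988 and 15502 CPM in the 3 bins above the threshold. Serpinb2 was at 11.5, 126 and 277 CPM in those bins, and Il4 at 15.3, 111 and 70.1 CPM. Below the threshold Serpinb2 stood at 13.2, 4.58, 0 and 4.04 CPM, so its lowest bin exceeded the first bin above the threshold. Ms4a7 and Mmp8 had 27.4 and 48.7 CPM in the last bin, above the 2.14 and 15.0 CPM of the bin from 200.

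**Figure D4:**
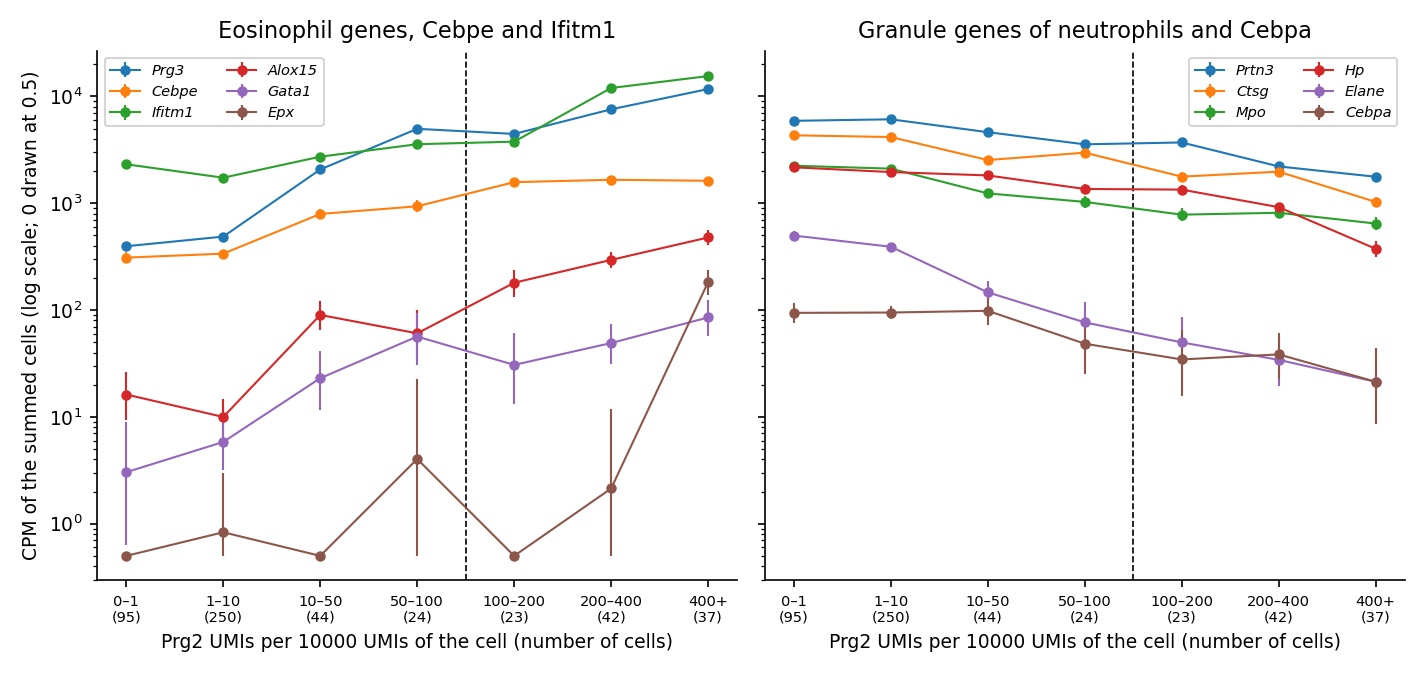
Level (CPM of the summed cells, log scale, 0 drawn at 0.5) of 6 genes in each panel across 7 bins of Prg2 per cell, with the number of cells in brackets, exact 95% intervals for counting error as bars and the threshold as a dashed line. Prg3 and Cebpe are already above their lowest bins in cells with 10 to 100 Prg2 UMIs per 10000, Epx is high only in the last bin (183 CPM), and Elane is lower in each bin than in the one before.

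Set against the brequinar 0 h culture, the groups differed in which of the genes were away from the starting level. Both ratios share that culture. Of 6198 genes, 26.6% were higher and 22.3% lower in Prg2-high cells than at 0 h, and of 6223 genes 26.5% and 16.5% in Prg2-low cells. Epx, Gata1 and Il5ra stood at 57.7, 55.8 and 22.7 CPM in Prg2-high cells and at 0.204, 3.88 and 3.68 CPM at 0 h. They reached the 20 CPM minimum only through Prg2-high cells, so the minimum set their direction. Counts of the eosinophil list against 0 h are therefore not given. Prg3 was 738 CPM at 0 h, close to the 919 CPM of Prg2-low cells. Cebpe was 126 CPM at 0 h, below both groups. Alox15 stood at 1.79 CPM at 0 h, 23.8 in Prg2-low and 324 in Prg2-high cells.

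Among granule genes, Elane stood at 42.7 CPM at 0 h, near the 34.1 CPM of Prg2-high cells and 8.65-fold below Prg2-low cells (7.95 to 9.42). Mpo was 914 CPM at 0 h and Prtn3 2502 CPM, so both were within 1.5-fold of 0 h in Prg2-high cells and above it in Prg2-low cells. Ctsg was 4430 CPM at 0 h, near the Prg2-low level of 3943 CPM and above the Prg2-high level. Hp (34.1 CPM at 0 h) and Spi1 (188 CPM) were higher than at 0 h in both groups. Zfp622 stood at 53.2 CPM at 0 h, 55.6 in Prg2-low and 270 in Prg2-high cells. Cd34 was 142 CPM at 0 h, 120 in Prg2-low and 35.0 in Prg2-high cells.

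Detection per cell after thinning to 2500 UMIs gave the same order for the main genes. Prg3 was seen in 100% of Prg2-high, 55.4% of Prg2-low and 41.0% of 0 h cells. Cebpe was seen in 91.2%, 43.8% and 22.4%, Alox15 in 43.1%, 3.63% and 0.459%, and Gata1 in 11.8%, 2.18% and 1.15%. Free RNA carried Prg3 at 1766 CPM, Cebpe at 283, Alox15 at 20.7 and Gata1 at 7.29 CPM. Detection of these 4 genes in Prg2-low and 0 h cells may include it, and the shares there are not read as expression. Median depths before thinning were 10302, 9713 and 15687 UMIs, and 3 cells at 0 h were too shallow once Prg2 was removed.

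The same split was made in the other 4 cultures with at least 20 Prg2-high cells. These cells took no part in the rule for the genes above. At 24 h of brequinar (45 Prg2-high cells), 7.37% of genes were higher and 13.2% lower. At 12 h of withdrawal (23 cells) these shares were 14.1% and 21.3%, at 24 h of withdrawal (188 cells) 5.14% and 3.29%, and at 48 h (49 cells) 18.9% and 12.5%. With no minimum level set, all 15 highest genes had a ratio above 1 at 24 h of brequinar, and 13, 15 and 14 of them at 12, 24 and 48 h of withdrawal. The interval lay above 1 for 13, 12, 13 and 14 of the 15 in this order. Of the 15 lowest, 15 had a ratio below 1 at 24 h of brequinar, and 13, 13 and 14 at the 3 withdrawal times, with the interval below 1 for 10, 6, 10 and 11. The median log2 ratio of all genes at 20 CPM or more was -0.06, -0.10, -0.05 and 0.09 in the same order. The shares of all genes with such ratios or intervals are not given, so these counts have no background of the same measure. At 12 h of withdrawal, 5 of the 12 highest genes that reached 20 CPM did so only in Prg2-high cells, so the 1.5-fold counts over measured genes are not given.

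Prg3, Epx, Alox15, Gata1 and Cebpe were higher in all 4 other cultures, each with an interval above 1. Il5ra was too, but at 12 h of withdrawal it had 8 counts in Prg2-high cells and an interval of 0.98 to 4.64. Prg3 was 9.70-fold higher at 24 h of brequinar and 12.3-, 3.60- and 9.38-fold at 12, 24 and 48 h of withdrawal. At 24 h of withdrawal the Prg2-low cells themselves had 5194 CPM of Prg3, above the 919 CPM at 48 h of brequinar. Epx reached 603 CPM in the Prg2-high cells of 48 h withdrawal (189 counts, against 1 in Prg2-low cells), 121 CPM at 24 h and 83.2 CPM at 24 h of brequinar, against 57.7 CPM at 48 h of brequinar. Cebpe was 2.29- to 5.71-fold higher.

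Serpinb2 and Il4 were higher at 24 h of brequinar (10.1- and 5.51-fold) and at 48 h of withdrawal, but both were under 20 CPM at 12 and 24 h of withdrawal. Ifitm1 in Prg2-high cells was at 11052 CPM at 48 h of brequinar, 3027 CPM at 24 h of brequinar (ratio 1.72) and 1321 to 2016 CPM in the withdrawal cultures (ratio 4.66 to 5.99). On the lower side, Elane, Prtn3, Tifab, Rbpms and Clec4d were lower in all 4 cultures, each with an interval below 1. Cebpa, Hp, Chil3 and S100a9 had ratios below 1 in all 4. The interval reached 1.32 for Cebpa at 48 h of withdrawal (6 counts). At 12 h of withdrawal it reached 1.06 for Hp, 1.23 for Chil3 (7 counts) and 1.08 for S100a9. Mpo was lower in 3 and had a ratio of 0.72 at 48 h of withdrawal.

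In all 4 other cultures Epx and Alox15 reached 20 CPM only in Prg2-high cells. Gata1 and Il5ra did so at 12 and 24 h of withdrawal as well, and Il1rl1 at 12 h. The 1.5-fold counts of the eosinophil list are therefore not given. The primary granule list had more lower than higher genes in each of the 4 (6 and 2 of 14, 5 and 4 of 13, 6 and 1 of 14, 7 and 2 of 14). Its median log2 ratio was 0.32 at 12 h of withdrawal, where Elane reached 20 CPM only in Prg2-low cells. The monocyte and macrophage list had 6 higher and 1 lower of 9 at 12 h of withdrawal, and 1 higher and 11 lower of 15 at 48 h. Of all genes, 14.1% were higher and 21.3% lower at 12 h, and 18.9% and 12.5% at 48 h. Differences between cultures were not tested, since each is 1 culture.

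**Figure D5:**
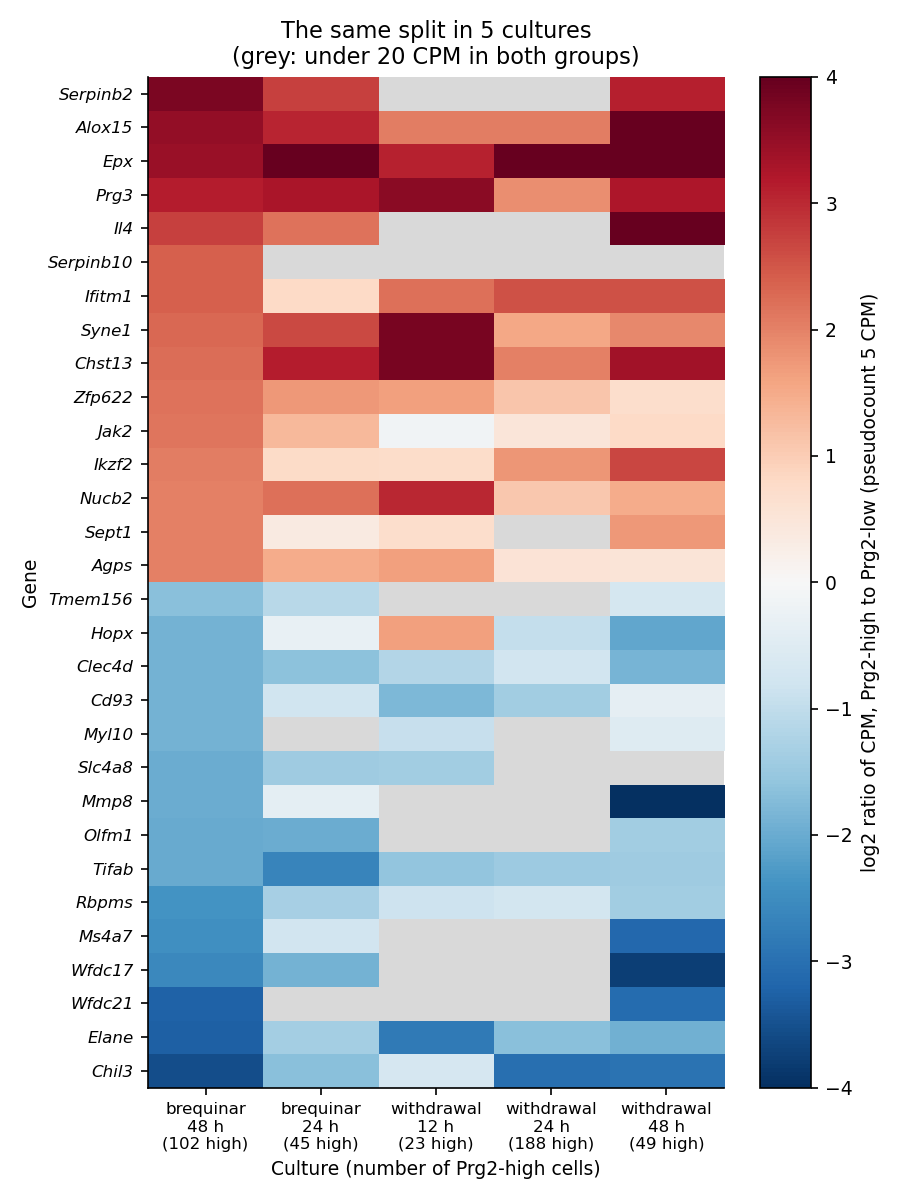
Log2 ratio of CPM in Prg2-high to Prg2-low cells (pseudocount 5 CPM; colour scale ends at -4 and 4) of the 15 highest and 15 lowest genes at 48 h of brequinar, beside the same split in 4 other cultures; grey marks genes under 20 CPM in both groups. The upper rows are mostly red and the lower rows mostly blue where coloured, and Hopx at 12 h of withdrawal (3.79-fold higher) is an exception.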

How the data were processed

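The authors deposited raw counts of spliced UMIs per cell barcode and gene, both runs in 1 matrix with no mark of the run, with their barcode calls and a table of barcodes and conditions. Kallisto 0.46, bustools 0.39.4 and Cell Ranger were used, per the submitters' processing notes, which give them no role. The genome build is not given in the sources used here. A table of gene names matched 54723 of the 54838 gene IDs to a symbol. Barcodes the authors called doublets (2777) or negative (265) were left out, and no other doublet caller was run. Of 15582 barcodes, 26 were listed more than once, all negative.

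Counts were summed per group without Prg2 and scaled to CPM. Ratios carry conditional binomial (Clopper-Pearson) intervals. A gene counts from 20 CPM in either group and 1.5-fold. With 1 culture per condition no test was run. The 26 lists, the 24 always named genes and the rule for the 15 highest and 15 lowest genes (50 CPM, Gm and Rik models left out) were chosen with earlier results of these data known. List examples are among the largest ratios, and some others, such as Siglecf, Srgn, Csf1r and Hoxa9, were named after their values were seen. Phases were scored with scanpy 1.11.5. Ratio steps were tested on simulated data.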

Additional observations from a re-analysis of the deposited data

Results flagged for a closer look

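Hopx, a small homeodomain protein, was on opposite sides of the split in different cultures. At 48 h of brequinar its ratio of Prg2-high to Prg2-low cells was 0.23 (21 against 360 counts). At 12 h of estradiol withdrawal it was 3.79 (13 against 165 counts in 23 and 976 cells, interval 1.97 to 6.65). The opposite direction is what set it apart, and the difference was not tested.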

How the results depend on the processing

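Each condition is 1 culture, so intervals cover counting error only and no culture could be left out. No paired analysis was possible because the 2 runs share 1 matrix with no mark of the run, and no test was made; leaving out each run was not possible for the same reason. The 30 genes of the rule were chosen for their ratios in these same cells. Leaving out the richest 2% of cells for each gene was part of their choice. The settings reuse these cells, so a kept direction is not separate support. Of the 15 highest genes 5, and of the 15 lowest 8, reached 20 CPM only in the group where they were higher. All 30 kept their direction under 21 settings, and 29 stayed at least 1.5-fold apart on the log2 scale. The exception was Epx, with a log2 ratio of 0.15 when only Prg2-high cells under 400 per 10000 were used, an alternative chosen after seeing the data. Counts of higher and lower genes were 406 and 552. They were 830 and 1104 with cells thinned to 2500 UMIs, 780 and 1061 in cells below the median depth, 236 and 217 with a filter of 50 CPM, 756 and 1312 with a filter of 5 CPM, and 145 and 199 with a fold of 2. Thinned and shallow cells hold fewer counts per gene, and the filters and the fold change which genes count. The share of Prg2-high cells was 24.5% at a threshold of 50 and 15.3% at 200. The median of the secondary and tertiary granule list reversed to 0.13 without the cells rich in neutrophil granule RNA, to 0.077 without the richest 2% of cells for each gene, and to 0.43 in cells below the median depth.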

Other observations

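Genes of the amino acid response, which ATF4 drives when amino acids or tRNA charging run short, were higher in part. Of 23 measured genes 7 were higher and none was lower in Prg2-high cells, with a median log2 ratio of 0.46, against 6.6% of all genes higher. Slc7a11, the cystine importer, stood at 512 against 157 CPM (3.27-fold, 2.91 to 3.67), Aldh18a1, an enzyme of proline synthesis, was 2.57-fold higher, and Psat1 and Asns were 1.78- and 1.61-fold higher. Atf4 itself had a ratio of 1.37. Against 0 h, 10 of the 23 genes were lower in Prg2-low cells and 3 in Prg2-high cells, where 16.5% and 22.3% of all genes were lower. At 24 h of brequinar 5 of 22 were higher and none was lower, against 7.37% and 13.2% of all genes. At 12, 24 and 48 h of withdrawal, 2 of 23, 1 of 23 and 3 of 21 were higher and 4, 1 and 0 lower. Of all genes, 14.1%, 5.14% and 18.9% were higher and 21.3%, 3.29% and 12.5% lower there. The withdrawal counts were thus near or below those shares.

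A short megakaryocyte list had 3 of 5 measured genes higher, against 6.6% of all genes. Itga2b, the platelet integrin chain, was 2.99-fold higher (2.40 to 3.71), Gp9 2.24-fold and Pf4 1.73-fold, while Gp1bb had no count in either group. At 24 h of brequinar 3 of 5 were higher, and at 12, 24 and 48 h of withdrawal 2 of 4, 3 of 4 and 3 of 4. Itga2b was among them each time. Of all genes, 7.37%, 14.1%, 5.14% and 18.9% were higher there. Lysosome and granule packaging genes went both ways, with Cd63 and Lamp2 among the higher genes and Ctsg, Cd68, Ctsz and Ctsc the lower ones. Cd63, a tetraspanin of granule membranes, stood at 2373 against 1240 CPM, 1.91-fold (1.82 to 2.01). Of the cholesterol synthesis genes, Cyp51 was 2.65-fold higher and Hmgcs1 2.42-fold lower.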
